A study of Homo sapiens with 6 samples.

Results

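The genes described here are the ZBTB, ZSCAN and ZKSCAN genes, families of zinc finger proteins that bind DNA. They were taken by symbol, as every gene with at least 1 protein-coding transcript in the deposited transcript names and a symbol that starts with ZBTB, ZSCAN or ZKSCAN and a digit. This gave 70 of the 60607 genes in the files, of which 42 were ZBTB, 21 ZSCAN and 7 ZKSCAN genes, with 440 annotated transcripts between them. One of the 42, ZBTB8OS, has its symbol from its place on the strand opposite a ZBTB8 gene and encodes archease, a cofactor of tRNA ligation, not a BTB protein. Libraries were made from polyA RNA of PLC/PRF/5 cells, a cell line from a human hepatocellular carcinoma, 48 h after transfection. The 3 control libraries came from cells given siGL2, the irrelevant siRNA of the study, and the 3 knockdown libraries from cells given siRNAs against SLU7. No gene was deleted and no other agent was named for either group. The series asks, by its title, whether less SLU7 changes which mRNA transcripts are made. Replicates were triplicate transfections of 1 line per the labels, with no word on separate days or passages, and p-values therefore cover only how far these libraries differ within a group, possibly for technical reasons alone.

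ZBTB proteins carry a BTB (POZ) domain at the amino terminus, through which they pair with each other and with corepressors, and C2H2 zinc fingers that read DNA. ZSCAN proteins carry a SCAN domain, a helical module found in vertebrates through which they pair with other SCAN proteins. ZKSCAN proteins add a KRAB domain, a type of domain that in many zinc finger proteins recruits the corepressor TRIM28. In liver, ZBTB20 is known for silencing AFP, the fetal serum protein, after birth. SLU7 is a splicing factor of the second catalytic step, in which the exons are joined, and is known for its part in the choice of the AG at the 3′ splice site.

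Sequences that go with the transcript results are shown first. They are exon junctions of the 2 members whose transcripts are described in most detail, written 5′ to 3′ as DNA of the transcript from GENCODE 29 on GRCh38, with capitals for the bases that only 1 of the forms holds.
ZSCAN29-202, exon 2 to exon 3: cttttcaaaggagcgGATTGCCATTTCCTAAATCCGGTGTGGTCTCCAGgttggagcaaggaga
ZSCAN29-206, exon 2 to exon 3: cttttcaaaggagcggttggagcaaggaga
ZSCAN26-207, exon 2 to exon 3: acaggacaacaggacccagaccagcca
ZSCAN26-206, exon 2 to exon 3: acaggacaacagGTGgacccagaccagcca
ZSCAN29-206 is annotated as a target of nonsense-mediated decay, the pathway that removes mRNAs with an early stop codon. It joins exon 2 to a 3′ splice site 34 bases further into exon 3, and the skipped stretch ends in AG. ZSCAN26-206 holds 3 bases more at the end of exon 2 than ZSCAN26-207, starts from a different first exon and has a longer last exon. These forms come back with their levels after the gene results. Of the 2 members, ZSCAN26 was called for a change in transcript usage and ZSCAN29 was not. No single junction was tested.

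Estimated counts per library ranged from 7736584 to 8693977 for controls and from 5191452 to 6315740 for knockdowns, of which between 6768 and 9881 fell on the 70 genes. SLU7 itself, the check of the labels, read 20.9, 17.1 and 18.4 CPM (counts scaled to library size) in controls and 9.38, 8.29 and 10.5 in knockdowns, a log2 difference of -1.002 ± 0.18 (SE) with an adjusted p of 0.0139 in edgeR's quasi-likelihood test. Control 1 and knockdown 3 stood apart from the other libraries in earlier results of these data, and fits without both are given beside the counts. Mitochondrial ribosomal RNA took 16.8% to 24.1% of the controls' counts and 29.9% to 35.3% of the knockdowns'. RN7SL RNA took 15.8% to 23.5% of the controls' counts and 8.09% to 10.6% of the knockdowns'. The part of either in the results was not tested. Of the hepatocyte markers, 14 of 15 were measurable and 1 passed the test (TTR, higher), with AFP near 0, and their summed level was 20379 to 31644 CPM in controls and 19617 to 26849 CPM in knockdowns. Summed markers of immune cells stood at 51.2 to 67.8 CPM in controls and 49.9 to 56.4 CPM in knockdowns, with 4 of 7 tested, 1 past the test (PTPRC, higher) and MS4A1 at 0 in every library. PTPRC had 3, 3 and 4 counts in controls and 12, 11 and 8 in knockdowns, and passed the count filter only through the knockdowns. CD68, LYZ and CSF1R, at log2 differences of -0.18, -0.33 and 0.052, did not pass the test. Fibroblast markers summed to 14.1 to 24.9 CPM in controls and 11.5 to 13.1 CPM in knockdowns, with 2 of 6 tested, 1 past the test (PDGFRB, lower) and COL3A1 and LUM at 0. Endothelial markers summed to at most 4.86 CPM in any library, with 1 of 5 tested and not past the test, and KDR and TEK at 0. In RNA from whole cultures, fewer cells of a type and less RNA per cell cannot be told apart.

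After SLU7 knockdown, 6 of the 63 tested members rose and 4 fell. The 6 were the SCAN genes ZSCAN29, ZSCAN12 and ZSCAN32 and the BTB genes ZBTB49, ZBTB24 and ZBTB43, each between 2.05- and 2.98-fold higher. The 4 were all BTB genes, ZBTB42, ZBTB18, ZBTB7B and ZBTB4, each between 1.86- and 3.04-fold lower. The test was edgeR's quasi-likelihood test on estimated counts, fitted over all 17109 tested genes, with Benjamini-Hochberg adjustment and a threshold of 0.05. Over all tested genes, 13.9% passed, 5.93% upward and 7.93% downward, and 15.9% of the tested members did, so the share among the members was near the background. The median log2 difference was 0.07 over the tested members and -0.01 over all tested genes, and -0.01 over the members with offsets for transcript length. By subfamily, 3 of 41 tested ZBTB genes rose and 4 fell (median -0.02), 3 of 16 ZSCAN genes rose and none fell (median 0.31), and none of 6 ZKSCAN genes passed the test (median 0.19). At an unadjusted p under 0.05 the ZKSCAN count was 2, and the difference between subfamilies was not tested.

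**Figure D1:**
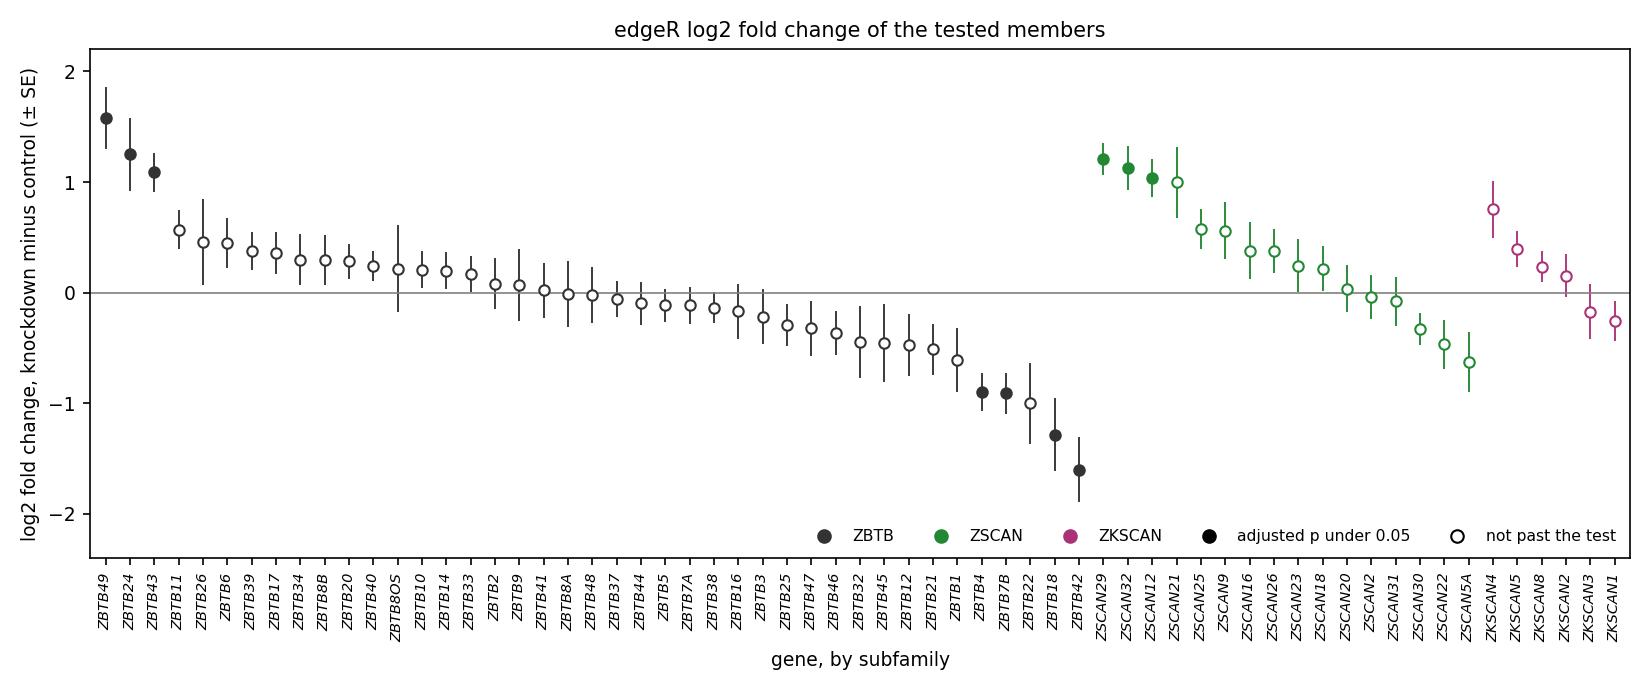
Log2 difference, knockdown minus control, of the 63 tested members by subfamily (vertical axis, edgeR estimate, bars ± SE); filled points passed the test at an adjusted p under 0.05. The 3 filled ZSCAN points lie above 0, the 7 filled ZBTB points lie on both sides, and no ZKSCAN point is filled.

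A wider count took members whose 3 knockdown values lay all above or all below the 3 control values. There were 19 above and 9 below, 44.4% of the tested members, against 36.6% of all tested genes (17.8% above and 18.8% below). Among the ZSCAN genes 7 lay above and 3 below, among the ZKSCAN genes 3 above and 0 below, and among the ZBTB genes 9 above and 6 below. The 10 called members are in both counts. Of the 70 members, 7 were too low to test, namely ZSCAN1, ZSCAN4, ZSCAN5B, ZSCAN5C, ZSCAN10, ZBTB7C and ZKSCAN7.

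ZSCAN29 had the smallest p of all members. It lies at chr15:43358172-43371025. Its level was 24.6, 23.7 and 27.1 CPM in controls and 54.8, 60.1 and 59.6 CPM in knockdowns. The groups lay far apart, with the lowest knockdown above every control. The log2 difference was 1.21 ± 0.14 (SE), a 2.31-fold rise, with an adjusted p of 0.00786. Among the fits that left out 1 library, the one without knockdown 2 left it short of the threshold (adjusted p = 0.0658) and the other 5 did not.

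ZSCAN12, at chr6:28378955-28399734, stood at 15.3, 11.7 and 15.1 CPM in controls and 30.9, 26.9 and 28.4 CPM in knockdowns. The groups did not overlap, and the log2 difference was 1.03 ± 0.17 (SE, adjusted p = 0.0108). Without knockdown 1 the adjusted p was 0.0517 and without knockdown 2 it was 0.0677. ZSCAN32, at chr16:3382081-3401065, read 11.9, 9.91 and 13.9 CPM in controls and 23.4, 23.8 and 31.2 CPM in knockdowns, again with no overlap. Its log2 difference was 1.13 ± 0.20 (SE, adjusted p = 0.0129), with an adjusted p of 0.0541 without control 2 and 0.0696 without knockdown 2. The exons of ZSCAN32 overlap those of AC025283.2, on the opposite strand, over 72.3% of their length. Reads of the pair may therefore be shared, and the level of ZSCAN32 is uncertain.

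No other ZSCAN gene passed the test, and those at an unadjusted p under 0.05 were ZSCAN25, ZSCAN21, ZSCAN5A and ZSCAN30. ZSCAN25 (also called ZNF498) read 16.5, 20.9 and 14.8 CPM in controls and 27.5, 25.3 and 24.8 CPM in knockdowns. All 3 knockdown values were above the controls, at a log2 difference of 0.57 ± 0.18 and an adjusted p of 0.0625. ZSCAN21 read 5.65, 4.15 and 7.54 CPM against 9.84, 8.48 and 16.4 CPM, also without overlap, and its log2 difference of 0.996 ± 0.32 had an adjusted p of 0.0680 with edgeR and 0.0404 with DESeq2. The exons of ZSCAN21 overlap those of ZNF3, on the opposite strand, over 41.1% of their length. ZSCAN5A, which has close copies in ZSCAN5B and ZSCAN5C, so that its level is uncertain, read 4.90, 3.88 and 5.11 CPM against 3.23, 3.13 and 2.62 CPM, all lower (log2 difference -0.62 ± 0.27, adjusted p = 0.151). ZSCAN30, at 35.7, 34.8 and 37.3 CPM in controls and 26.0, 29.5 and 30.5 CPM in knockdowns, had all knockdown values below the controls and a log2 difference of -0.33 ± 0.14 (adjusted p = 0.155).

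Among the ZKSCAN genes, ZKSCAN1 had the highest counts of all members in the controls. It read 87.3, 67.4 and 67.9 CPM in controls and 56.1, 54.9 and 75.3 CPM in knockdowns, with overlap and a log2 difference of -0.26 ± 0.18 (adjusted p = 0.368). ZKSCAN8 read 39.6, 34.4 and 35.3 CPM against 44.9, 41.5 and 42.2 CPM. Its groups did not overlap, but the log2 difference of 0.24 ± 0.14 had an adjusted p of 0.283. ZKSCAN5 behaved alike in size, at 21.0, 16.2 and 19.8 CPM against 24.8, 23.8 and 26.3 CPM, a log2 difference of 0.39 ± 0.16 (adjusted p = 0.139). ZKSCAN4 had the largest estimate of the subfamily, 0.75 ± 0.26, from 12.3, 8.04 and 8.18 CPM in controls and 13.5, 13.6 and 21.1 CPM in knockdowns (adjusted p = 0.0840). Without control 1, its highest control, the estimate was 0.98 and the adjusted p 0.0208. ZKSCAN3, known as a repressor of autophagy genes, read 14.3, 13.0 and 9.33 CPM against 12.5, 12.2 and 7.85 CPM, with overlap and an adjusted p of 0.677.

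Of the BTB genes, ZBTB49 had the largest rise. It read 2.01, 2.41 and 2.30 CPM in the controls, from 16 to 18 counts, and 5.54, 6.27 and 8.41 CPM in knockdowns, from 34 to 45 counts. Every knockdown was more than any control, at a log2 difference of 1.58 ± 0.28 (SE, 2.98-fold, adjusted p = 0.0130). It lies at chr4:4290251-4321786, and its adjusted p was 0.0501 without control 3 and 0.0702 without knockdown 2. ZBTB43, at chr9:126805006-126838210, read 10.4, 9.38 and 11.5 CPM against 20.3, 24.7 and 21.7 CPM, with no overlap. Its log2 difference was 1.09 ± 0.17 (adjusted p = 0.0102), and without knockdown 2 the adjusted p was 0.0702. With offsets for the transcript length of each library, ZBTB49 had an adjusted p of 0.0788 and ZBTB43 of 0.178.

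ZBTB24, mutated in the immunodeficiency, centromeric instability and facial anomalies syndrome and an activator of CDCA7, lies at chr6:109462594-109483237. It read 46.4, 16.6 and 23.5 CPM in controls and 58.8, 75.2 and 72.3 CPM in knockdowns. Control 1 was high among the controls but still below every knockdown. The log2 difference was 1.25 ± 0.33 (SE, adjusted p = 0.0388). Without control 1 it was 1.77, with an adjusted p of 0.00148. Without any one of the other libraries ZBTB24 did not pass, with adjusted p of 0.0992 and 0.123 (controls 2 and 3) and 0.0851, 0.141 and 0.101 (knockdowns 1, 2 and 3).

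The largest fall was that of ZBTB42, at chr14:104800596-104804712. It read 4.15, 5.22 and 4.98 CPM in controls and 1.54, 1.66 and 1.49 CPM in knockdowns, from 33 to 39 and from 8 to 10 counts. The groups lay well apart, at a log2 difference of -1.60 ± 0.29 (SE, 3.04-fold lower, adjusted p = 0.0143). ZBTB18 (RP58), a close relative of ZBTB42 and a repressor known from neuronal development, lies at chr1:244048939-244057476. It read 5.28, 3.75 and 3.71 CPM against 1.85, 2.03 and 1.31 CPM, without overlap, and its log2 difference was -1.29 ± 0.33 (adjusted p = 0.0357). For ZBTB42 the adjusted p was 0.0584 and 0.0537 without controls 2 and 3 and 0.0574 and 0.0758 without knockdowns 1 and 2. The call of ZBTB18 was lost without any one library, at adjusted p between 0.0534 and 0.109 over all 6 such fits, and with DESeq2 (adjusted p = 0.0501).

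ZBTB4 and ZBTB7B also fell. ZBTB4, a methyl-CpG binding relative of Kaiso, lies at chr17:7459366-7484263 and read 20.4, 23.3 and 21.3 CPM in controls and 13.1, 11.1 and 10.6 CPM in knockdowns. ZBTB7B (ThPOK), known for directing T cells to the CD4 lineage, lies at chr1:155002630-155018522 and read 37.1, 31.6 and 30.7 CPM against 14.0, 19.4 and 19.6 CPM. In both genes the knockdowns were below every control. The log2 differences were -0.90 ± 0.17 (adjusted p = 0.0154) for ZBTB4 and -0.91 ± 0.18 (adjusted p = 0.0183) for ZBTB7B. Both lost the call without control 2, control 3, knockdown 1 or knockdown 2, at adjusted p of 0.0586, 0.0549, 0.0504 and 0.0849 for ZBTB4 and 0.0572, 0.0516, 0.0673 and 0.0798 for ZBTB7B.

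**Figure D2:**
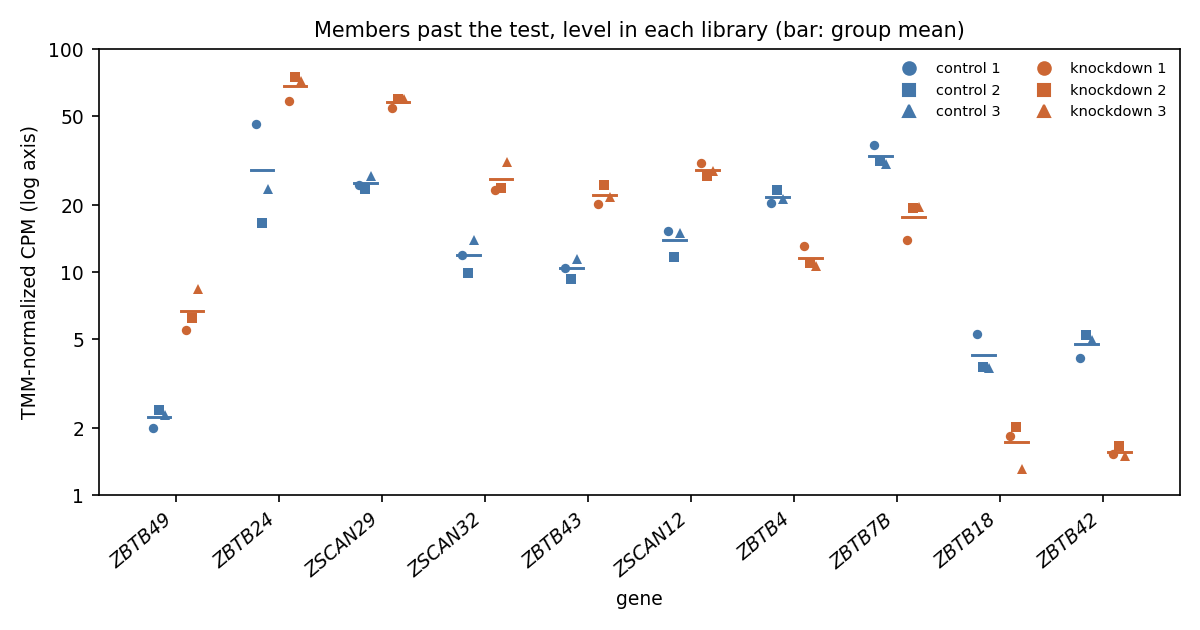
Level of the 10 called members in each library (vertical log axis, TMM-normalized CPM; symbols are replicates 1 to 3, bars are group means). In each of the 10 genes the 3 knockdown points lie all above or all below the 3 control points, and control 1 of ZBTB24, at 46.4 CPM, lies nearest the other group.

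Leaving out knockdown 2 removed the calls of all 10 members. That fit called 0 of 18511 tested genes, with 14 members at an unadjusted p under 0.05, against 18 with all libraries (32% of all tested genes were under that p). Without control 2, control 3 or knockdown 1 the count was 4 higher and 0 lower each time, where 2.61%, 3.58% and 1.81% of all tested genes passed. Without knockdown 3 it was 5 higher and 3 lower (5.64% of all tested genes), and without control 1 it was 9 higher and 3 lower (25.3%). Without both control 1 and knockdown 3 it was 10 higher and 5 lower, where 29.8% of all tested genes passed, 14.1% higher and 15.7% lower. That fit kept 9 of the 10 calls, lost ZBTB18 (adjusted p = 0.0824) and added ZBTB11, ZKSCAN4, ZSCAN25 and ZBTB8OS upward and ZBTB22 and ZBTB25 downward. The sign of all 10 called members was the same in each of the 16 alternative fits.

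Several BTB genes with well-known roles did not pass the test. ZBTB20 read 36.4, 40.3 and 38.7 CPM in controls and 54.1, 40.9 and 45.2 CPM in knockdowns, all above the controls by little in knockdown 2 (log2 difference 0.28 ± 0.16, adjusted p = 0.247). The exons of ZBTB20 overlap those of AC093010.3, on the same strand, over 47.7% of their length. ZBTB33 (Kaiso), which binds methylated DNA, read 33.2, 26.4 and 28.5 CPM against 37.1, 32.6 and 29.1 CPM, with overlap (adjusted p = 0.523). ZBTB38, the other Kaiso relative, read 44.2, 45.3 and 46.0 CPM against 41.8, 44.2 and 37.0 CPM (adjusted p = 0.535). Of the 3 Kaiso-like genes, ZBTB4 was thus the only one past the test, and the difference between them was not tested.

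ZBTB17 (Miz-1), the partner through which MYC represses genes, read 12.4, 12.1 and 10.4 CPM in controls and 12.6, 16.8 and 15.3 CPM in knockdowns. All knockdowns were higher, knockdown 1 by little, with a log2 difference of 0.36 ± 0.19 (adjusted p = 0.227). ZBTB7A (LRF), the relative of ZBTB7B that silences fetal globin, read 19.9, 18.6 and 15.7 CPM against 17.2, 16.04 and 16.8 CPM, with overlap (log2 difference -0.11 ± 0.17, adjusted p = 0.679, and 0.56 with the GC content offsets described later). ZBTB16 (PLZF), known from its fusion with RARA in leukemia, read 7.16, 5.49 and 7.03 CPM against 7.23, 4.79 and 5.42 CPM (adjusted p = 0.683). These values overlapped as well.

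ZBTB40 and ZBTB37 had, with ZKSCAN1, the highest counts among the members. ZBTB40 read 66.7, 63.1 and 64.0 CPM in controls and 82.3, 78.0 and 68.9 CPM in knockdowns, without overlap (log2 difference 0.24 ± 0.14, adjusted p = 0.261). ZBTB37 read 66.5, 48.6 and 54.4 CPM against 56.8, 50.1 and 56.1 CPM, with overlap (adjusted p = 0.838). ZBTB11 read 29.02, 20.6 and 23.4 CPM against 37.1, 38.9 and 32.3 CPM, all higher, at 0.57 ± 0.18 and an adjusted p of 0.0625. Without control 1 its adjusted p was 0.0128.

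Control 1 stood high in several members. ZBTB1, needed for lymphocyte development, read 78.3 CPM there and 36.3 and 36.8 CPM in the other controls, against 33.8, 33.2 and 32.5 CPM in knockdowns (log2 difference -0.61 ± 0.29, adjusted p = 0.185). Without control 1 and knockdown 3 its difference was -0.12. ZBTB8OS, the archease gene, read 29.3, 10.6 and 11.6 CPM against 14.5, 20.6 and 25.04 CPM, at 0.22 ± 0.39 (adjusted p = 0.739). Without control 1 the difference was 0.84 with an adjusted p of 0.0340, and without control 2 it was -0.04. ZBTB32 read 24.1, 12.9 and 12.5 CPM against 9.38, 10.1 and 17.0 CPM, with overlap through knockdown 3 (adjusted p = 0.383). ZBTB22, the neighbour of TAPBP in the extended major histocompatibility complex, read 9.17, 12.3 and 6.26 CPM against 3.69, 3.13 and 7.10 CPM, with only knockdown 3 inside the controls' range (log2 difference -0.999 ± 0.36, adjusted p = 0.0985).

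Members tied to early embryos and stem cells were at or near 0. ZSCAN4, a gene of the first embryonic divisions, had 3, 0 and 1 counts in controls and 5, 3 and 4 in knockdowns. ZSCAN10, known from embryonic stem cells, had 0, 0 and 2 counts in controls and 0, 1 and 0 in knockdowns. ZBTB7C and ZSCAN5C had 0 counts in all 6 libraries. These numbers were too low for a test in either direction.

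Levels can be compared between genes only per length, for which the deposited TPM values, scaled to transcript length and library, serve. On that scale the order in the controls was led by ZKSCAN1 with 20.9 ± 5.95 TPM (SD, n = 3), followed by ZBTB8OS with 16.7 ± 12.3, ZSCAN23 with 10.1 ± 4.54 and ZBTB32 with 9.98 ± 5.71 TPM. Next came ZBTB1 with 8.31 ± 4.39, ZSCAN30 with 8.24 ± 1.83 and ZBTB7B with 8.11 ± 1.7997 TPM. Neighbours among these 7 differed by less than the larger of their SDs. The called genes ranged from ZBTB7B through ZSCAN29 at 4.83 ± 1.18 TPM, to ZBTB42 at 0.623 ± 0.083 and ZBTB18 at 0.515 ± 0.143 TPM, both among the lowest of the tested members. Summed over the 70 genes, the level was 265, 167 and 229 TPM in controls and 331, 336 and 372 TPM in knockdowns, with no overlap. Summed CPM did not separate the groups, at 1241, 1071 and 1088 in controls and 1226, 1247 and 1270 in knockdowns. The summed CPM of the ZSCAN genes alone did, at 207, 194 and 210 in controls and 269, 274 and 294 in knockdowns, while the sums of the ZBTB and the ZKSCAN genes overlapped. Most of the rise in the ZSCAN sum came from the called ZSCAN29, ZSCAN12 and ZSCAN32. Their means went from 25.1, 14.0 and 11.9 CPM in controls to 58.1, 28.7 and 26.1 CPM in knockdowns.

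The TPM scale shifted all genes: the median log2 difference over all tested genes was 0.35 with limma on log2(TPM + 1) and -0.01 with edgeR on counts. On it the split of member calls was 14 higher and 0 lower, in place of 6 and 4, where 18.3% of all tested genes passed, 17.4% higher and 0.877% lower, and the members' median of 0.37 was close to that of all genes. ZBTB42, ZBTB18, ZBTB4 and ZBTB7B kept their sign there, at -0.30, -0.23, -0.24 and -0.08, and none passed. SLU7 itself was at -0.06 on that scale (adjusted p = 0.868). Offsets for the transcript length per library gave 3 higher (ZSCAN29, ZSCAN32 and ZSCAN12) and 2 lower (ZBTB4 and ZBTB42), against 5.65% of all tested genes called, 2.58% higher and 3.06% lower. Counts over coding transcripts alone gave 7 higher and 3 lower, with ZBTB11 added upward and ZBTB18 lost, where 12.4% of all tested genes passed, 5.26% higher and 7.16% lower.

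GC content moved with the differences. Across the 63 tested members the Pearson correlation of the log2 difference with the GC content of the transcripts was -0.34, and across 16694 tested genes it was -0.37, as a description of genes that share the same 6 libraries. ZBTB42, ZBTB7B and ZBTB4 were GC-rich, at 63.1%, 62.0% and 58.0%, where the members' median was 47.4%. ZBTB18, which also fell, was at 43.1%, and the 6 members that rose were between 41.6% and 50.1%. With offsets for GC content and length, ZBTB42 was at -1.01 (adjusted p = 0.0553), ZBTB4 at -0.49 (0.0880) and ZBTB7B at -0.45 (0.178). ZBTB18 was then at -1.42 (adjusted p = 0.0274), and all 6 members that rose passed again. The split became 9 higher and 1 lower, with ZBTB17 (0.86, adjusted p = 0.0289), ZSCAN18 (0.70, adjusted p = 0.0498) and ZSCAN25 (0.66, adjusted p = 0.0441) added, and 10.6% of all tested genes passed, 5.28% higher and 5.34% lower. The part of GC content in the differences was not tested beyond these offsets.

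**Figure D3:**
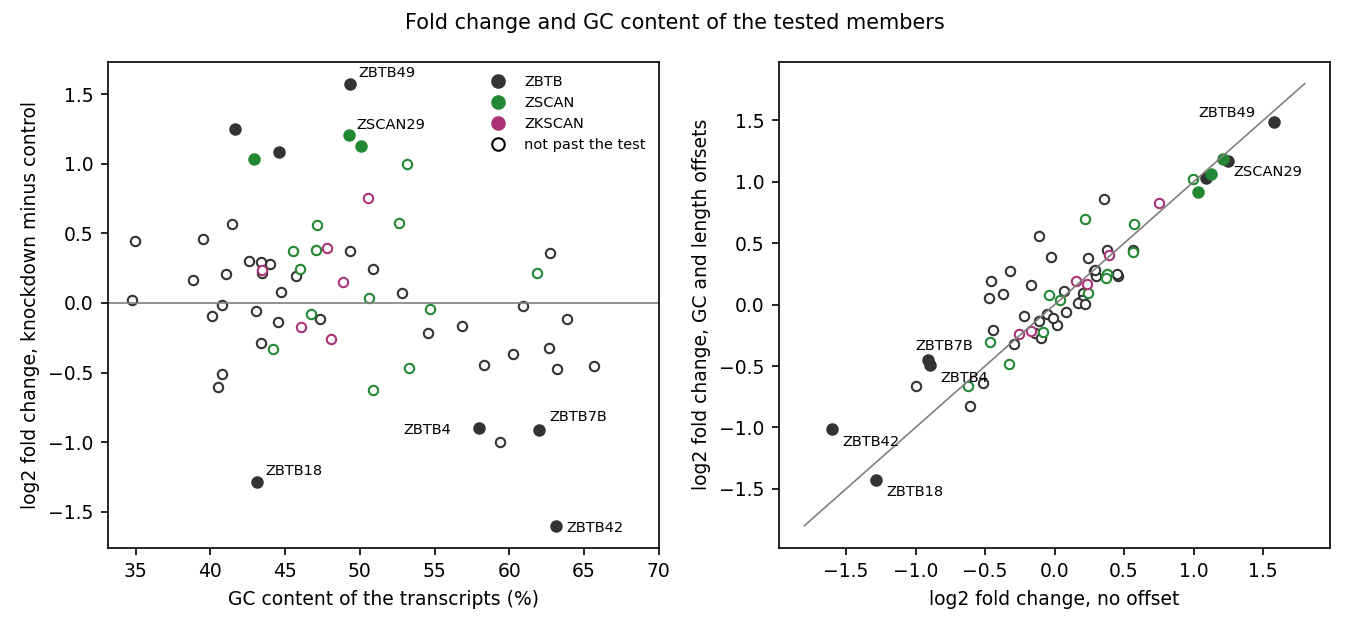
Left, log2 difference (knockdown minus control) of the 63 tested members against the GC content of their transcripts in percent; right, the log2 difference with offsets for GC content and length against that without, with the line of equal values. ZBTB42, ZBTB4 and ZBTB7B lie at the GC-rich end and move toward 0 with the offsets, while ZBTB49, ZSCAN29 and ZBTB18 stay near the line.

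Many members sit in gene clusters. Joining members with gaps of at most 500000 bases, the largest chain lay at chr6:28124560-28443502 and held 9 SCAN genes, ZSCAN16, ZKSCAN8, ZSCAN9, ZKSCAN4, ZSCAN26, ZSCAN31, ZKSCAN3, ZSCAN12 and ZSCAN23. Of these 9, 1 was called (ZSCAN12), 7 had a positive difference, 5 lay wholly above the controls and 0 below, and the median was 0.37. Over all tested genes, 13.9% were called, 5.93% higher and 7.93% lower. Of the same genes, 17.8% lay wholly above the controls and 18.8% below. ZSCAN9 was one of the 5, at 3.64, 4.29 and 6.01 CPM against 7.38, 6.64 and 6.54 CPM (log2 difference 0.56 ± 0.26, adjusted p = 0.172). ZSCAN31, in the same chain, read 5.40, 5.89 and 5.75 CPM against 5.54, 5.90 and 4.67 CPM, with overlap. A chain of 4 at chr7:99504651-100065038, ZKSCAN5, ZSCAN25, ZKSCAN1 and ZSCAN21, had 3 members wholly above the controls, no call and a median of 0.48. The chains on chromosome 19 had negative values, a median of -0.46 over the 3 tested of 5 members at chr19:57668935-58538911 (1 of 3 positive, no call) and ZSCAN5A, at -0.62, as the 1 tested of 3 at chr19:56189570-56368383. The chain of ZBTB8A, ZBTB8B and ZBTB8OS at chr1:32465069-32650903 had no call and a median of 0.22. The 43 tested members outside the chains of 3 or more genes had a median of -0.02, with 5 called higher and 4 lower (20.9%).

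Related genes of the same pathways were read from the same fit. Of 27 other SCAN genes, all tested, 6 rose and 0 fell (22.2%, beside 13.9% of all tested genes), with a median of 0.35. Without control 1 and knockdown 3 the count was 9 higher and 4 lower, beside 29.8%. The 3 with the smallest p were ZNF263, ZNF202 and PGBD1. ZNF263 rose from 38.8, 37.5 and 39.1 CPM to 68.8, 62.3 and 67.6 CPM (log2 difference 0.78 ± 0.13, adjusted p = 0.0111), ZNF202 from 12.1, 9.24 and 12.1 CPM to 19.996, 22.9 and 26.5 CPM (1.05 ± 0.19, adjusted p = 0.0141), and PGBD1 by 1.05 ± 0.25 (adjusted p = 0.0302). Of 8 BTB zinc finger genes with other symbols, 6 were tested, of which 1 rose and 2 fell (50%, beside 13.9%). Leaving out control 1 and knockdown 3 gave 2 higher and 2 lower, beside 29.8%. MYNN rose from 17.8, 18.0 and 18.3 CPM to 32.5, 38.5 and 37.6 CPM (1.004 ± 0.15, adjusted p = 0.00957). HIC2 and BCL6, both repressors, fell by 0.77 ± 0.18 (adjusted p = 0.0274) and 0.64 ± 0.16 (adjusted p = 0.0357). With offsets for GC content and length HIC2 was at -0.26 (adjusted p = 0.345). With offsets for transcript length ZNF263, ZNF202, PGBD1, MYNN, HIC2 and BCL6 all missed the threshold, at adjusted p between 0.0505 and 0.310. None of these kept the call without knockdown 2, but that fit called 0 of 18511 tested genes. Of the 6 fits that left out 1 library, MYNN was called in 5, ZNF202 in 4, ZNF263 in 3 and BCL6 in 2. HIC2 and PGBD1 were called in 1 each.

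Partners of the BTB and KRAB domains were read next. Of 19 corepressor and CUL3 genes that BTB proteins bind, 1 passed (5.26%, beside 13.9% of all tested genes). It was TBL1XR1, a subunit of the NCoR complex, which fell by 0.66 ± 0.16 (adjusted p = 0.0293), but its sign turned to 0.39 on the TPM scale. Of 12 genes of the KRAB corepressor machinery, 1 passed (8.33%): MORC2, which acts with the HUSH complex, rose from 38.1, 30.5 and 35.5 CPM to 55.7, 58.6 and 64.6 CPM (0.78 ± 0.15, adjusted p = 0.0160). Without control 1 and knockdown 3 the counts were 1 higher and 3 lower of the 19, and 4 higher and 1 lower of the 12. Both calls were lost without knockdown 2 (adjusted p = 0.146 and 0.0831), where 0 of 18511 tested genes passed, and in most other fits that left out a library.

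The next comparison asked whether the members' genes changed in which transcripts they made. Of 42 members with at least 2 tested transcripts, 130 transcripts in all, 1 passed edgeR's diffSpliceDGE with the Simes method, ZSCAN26, where 2.9% of 8869 tested genes did. ZSCAN26 lies at chr6:28267010-28278224 and its total level was not called, at 6.03, 6.96 and 7.28 CPM in controls and 8.31, 8.85 and 9.16 CPM in knockdowns (log2 difference 0.37 ± 0.20, adjusted p = 0.230). ZSCAN26-206 held 0 estimated counts in all 3 controls and 33.9, 17.2 and 11 in knockdowns, 63.1%, 35.5% and 22.5% of the gene. ZSCAN26-202 held 21.2, 24.9 and 17.1 counts in controls and 3.0, 0 and 9.3 in knockdowns, and ZSCAN26-207 held 14.5, 20.9 and 17.9 against 1.9, 19.9 and 28.4. The first 2 forms did not overlap between the groups and the third did. ZSCAN26-206 passed the count filter only through the knockdowns, the group in which it is high. Its place in the test thus depended on the difference that the test reports.

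The gene's Simes p was 8.73e-04 and its adjusted p 0.0335. The first exon of ZSCAN26-206, at chr6:28267359-28267453 and 95 bases long, starts after the first exon of ZSCAN26-207 has ended, with 145 bases between them. Its second exon ends 3 bases later, the GTG in the sequence shown above, which keeps the reading frame. The last exon of ZSCAN26-206 is 2030 bases long and that of ZSCAN26-207 is 1336. The gene had 48 to 57 counts a library, and the call was lost without control 1, 2 or 3 (adjusted p = 0.0854, 0.207 and 0.209) and without knockdown 1 or 2 (0.0926 and 0.0768), and held without knockdown 3 (0.0390). Short reads distinguish these forms only in part, and the uncertainty of splitting reads between them was not modelled.

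**Figure D4:**
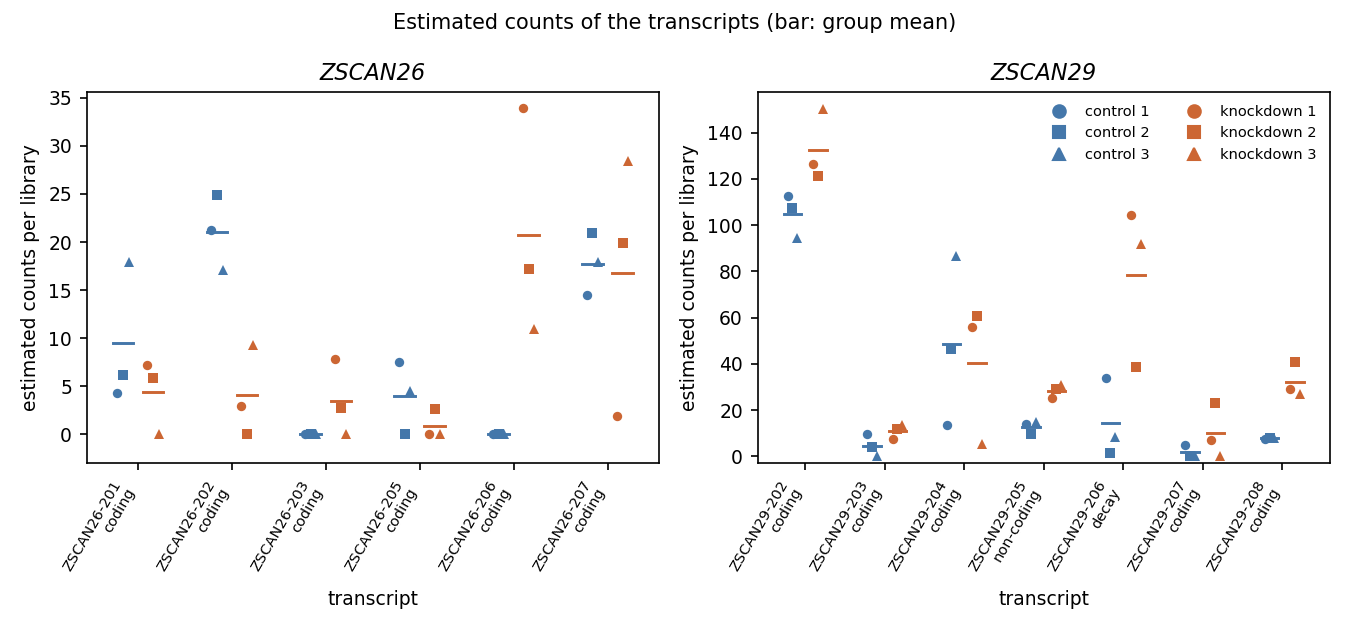
Estimated counts per library (vertical axes, linear) of the transcripts of ZSCAN26 (left) and ZSCAN29 (right) that were not at or near 0; symbols are replicates 1 to 3 and bars are group means. ZSCAN26-206 is at 0 in all 3 controls and between 11 and 33.9 in knockdowns, and ZSCAN29-206, the decay form, is between 38.7 and 104 in knockdowns and at most 33.8 in the controls.

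ZSCAN29, the member with the clearest rise, was not called for transcript usage (adjusted p = 0.981). Its main coding form ZSCAN29-202 held 112.6, 107.3 and 94.5 counts in controls and 126.6, 121.2 and 150.1 in knockdowns, higher in each although the knockdown libraries were smaller. The decay form ZSCAN29-206 held 33.8, 1.6 and 8.2 counts in controls and 104.2, 38.7 and 92.0 in knockdowns, that is 17.2%, 0.907% and 3.86% of the gene against 29.3%, 11.9% and 28.8%. Control 1 lay above the share of knockdown 2, so the shares overlapped while the counts did not. A short coding form, ZSCAN29-208, held 7.5, 8.0 and 8.1 counts against 29.1, 40.9 and 27.0. ZSCAN29-206 lacks the 34 bases in capitals above, its annotated reading frame ends 74 bases into its exon 3, and its exon 4 starts 105 bases upstream of that of ZSCAN29-202. Counted over coding transcripts alone, ZSCAN29 still rose (log2 difference 0.99, adjusted p = 0.0190).

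In the fit without control 1 and knockdown 3, ZSCAN29 and ZSCAN30 passed the usage test (adjusted p = 0.0359 and 0.0127), as did 9.36% of all tested genes, and ZSCAN26 did not (0.0741). Without control 1 alone ZSCAN29 was at 0.0474 and ZSCAN30 at 0.00334. ZSCAN30-211, a coding form, held 68.8 counts in control 1 and 2.3 and 0.3 in the other controls, against 44.8, 41.5 and 48.4 in knockdowns. Control 1 thus sat with the knockdowns for this transcript. ZBTB46, a marker gene of classical dendritic cells, had 44.0, 57.1 and 26.5 counts of ZBTB46-202 in controls and 5.5, 0 and 3.1 in knockdowns, but the gene was not called (adjusted p = 0.642). In ZBTB49 the coding form ZBTB49-201 held 0.8, 0 and 4.0 counts in controls and 26.7, 16.2 and 10.8 in knockdowns, without a call for the transcript.

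Transcripts were also summed by class. The 440 transcripts are annotated as 324 coding, 60 processed without a reading frame, 31 with a retained intron and 25 as decay targets. Over the 70 genes, coding transcripts made up 85.8%, 88.3% and 87.9% of control counts and 84.0%, 83.9% and 82.8% in knockdowns. Retained-intron transcripts took 3.35%, 3.48% and 2.93% against 4.64%, 4.01% and 4.39%, and decay transcripts 7.61%, 5.36% and 5.88% against 7.86%, 8.37% and 9.15%. In all 3 classes the groups did not overlap, with the knockdowns lower in coding and higher in the other classes. The separation in decay depended on ZSCAN29. Control 1 and knockdown 1 were close in decay share, at 7.61% and 7.86%. ZSCAN29 alone held 33.8 of the decay counts in control 1 and 104.2 in knockdown 1. Over all genes with a coding transcript, the coding share was also lower, at 75.4% to 78.0% in controls and 71.4% to 72.7% in knockdowns. Their retained-intron share was 9.67% to 10.4% in controls and 13.3% to 13.6% in knockdowns, and their decay share overlapped.

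Gene by gene, none of 22 tested members passed the class test with edgeR's diffSpliceDGE, where 2.5% of 6838 tested genes did, and none passed with limma's diffSplice. At an unadjusted p under 0.05 there was 1 member, the decay class of ZSCAN29 (log2 shift relative to the gene 1.63, adjusted p = 0.224), and 21.5% of all tested genes were under that p. The shift toward decay transcripts was positive in 10 of 13 members with that class tested (median 0.39), and in 55.2% of all genes. Toward retained introns it was positive in 6 of 6 members (median 0.56), and in 75.5% of all genes. In ZKSCAN1 the retained-intron form took 8.83%, 7.35% and 2.90% of the gene in controls and 12.1%, 11.6% and 13.8% in knockdowns, with no overlap (adjusted p = 0.513). In ZBTB16 it took 25.5%, 21.7% and 31.8% against 51.7%, 46.0% and 37.8%, from at most 24.3 counts (adjusted p = 0.863).

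Without control 1 and knockdown 3, 3 of 23 members passed the class test, as did 7.47% of all tested genes. They were the decay class of ZBTB32 (log2 shift 5.62, adjusted p = 0.0175) and of ZSCAN29 (2.95, adjusted p = 0.0236) and the retained-intron class of ZBTB44 (1.796, adjusted p = 0.0325). In ZBTB32 the decay form held 66.4 counts in control 1 and 1.4 and 0 in the others, against 8.8, 26.9 and 30.4. In ZBTB44 the retained-intron forms held 27.5, 17.2 and 15.4 counts against 45.0, 46.5 and, in knockdown 3, 5.4. In ZBTB32 control 1 lay above every knockdown, and in ZBTB44 knockdown 3 lay below every control.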

How the data were processed

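The deposited tables give, per the file headers, an estimated count for each transcript, neither whole nor normalized. Beside it the authors gave a TPM value, computed over the effective length that the same table lists, per the file headers. FastQC 0.11.8, Trimmomatic 0.38, kallisto 0.46.1, sleuth 0.30.0 and GRCh38 are named per the submitters' processing notes, with no role or order. For the annotation release and the strand setting nothing is given in the sources used here, so overlapping genes cannot be told apart. Transcripts were made into libraries with a ScriptSeq kit, per the labels' protocols.

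The 234485 transcripts of each file were summed to 60607 genes, with 159 pseudoautosomal Y records added to their X copies, and sums were rounded to whole numbers. Another 21 symbols of the pattern had no coding transcript and were not members. Normalized levels are CPM with TMM scaling. Tests were run in edgeR 4.0.16 (R 4.3.3): filterByExpr (a count of 10 in a library and 15 in all), glmQLFTest over all genes with all 6 libraries, diffSpliceDGE with Simes for transcripts, and the same per transcript class, each with Benjamini-Hochberg adjustment at 0.05. A log2 difference carries the SE of that fit. Alternatives were leaving out libraries, a block for the replicate number, another filter (a count of 10 in 3 libraries and a mean of 1 CPM, which kept 17141 genes) or none, scaling with RLE, DESeq2 1.42.0, limma 3.58.1 on log2(TPM + 1), offsets for transcript length or for GC content and length, and coding transcripts only. The scripts were tested on simulated data. For transcript usage, recovery of changes was required only at a fixed dispersion, not at that fitted to these data. These runs therefore do not show which changes in usage could be found here. Sequences, coordinates, overlaps and GC content came from GENCODE 29 (GRCh38), with transcripts used only where the version matched. GC content was known for 97.6% of the tested genes.

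The members and lists were chosen with earlier results of these data known. Named were the called members, the 3 with the highest mean CPM per subfamily, members past a transcript test, a preset group of 11 (ZBTB20, ZBTB16, ZBTB33, ZBTB17, ZBTB7A, ZBTB7B, ZKSCAN1, ZKSCAN3, ZSCAN4, ZSCAN10 and ZBTB8OS) and up to 3 called genes per other list. ZBTB1, ZBTB11, ZBTB22, ZBTB25, ZBTB32, ZBTB38, ZBTB44, ZBTB46, ZKSCAN4, ZSCAN5A, ZSCAN9, ZSCAN18, ZSCAN21, ZSCAN23 and ZSCAN31 were named after their values were seen.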

Additional observations from a re-analysis of the deposited data

How the results depend on the processing

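The number of members called higher and lower was 6 and 4 with all libraries and 0 and 0 with the replicate number as a block (0 of 17109 genes, 14 members at an unadjusted p under 0.05), where transcript usage had 0 calls in place of 1 and the class test 0. The labels do not say whether the numbers pair the samples. Same-numbered deviations from the group means correlated at -0.41, 0.11 and -0.37. Not every library correlated best with its own number (control 1 with knockdown 3, r = 0.44). Deviations of 3 libraries sum to 0 within a group, so these values cannot decide whether the samples are paired. Leaving out 1 library gave 0 to 9 higher, 0 to 3 lower, 0 to 2 members in transcript usage and 0 to 2 in class usage. Without control 1 and knockdown 3 the counts were 10 higher, 2 in transcript usage and 3 in class usage. On log2(TPM + 1) they were 14 higher and 0 lower with a median of 0.37, with transcript length offsets 3 and 2, and with GC content and length offsets 1 lower. RLE size factors, both filters, DESeq2 and coding transcripts only stayed within 1.5 times these counts.

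Single genes turned sign as follows, with no call in the value that turned. Leaving out 1 library, ZBTB37 ranged from -0.16 to 0.074 (without control 1), ZBTB8OS from -0.044 (without control 2) to 0.84, ZKSCAN3 from -0.35 to 0.012, ZSCAN31 from -0.15 to 0.0085 and ZBTB44 from -0.25 to 0.069 (all 3 without knockdown 3). Without control 1 and knockdown 3 ZBTB37 was at 0.057, ZKSCAN3 at 0.15 and ZBTB44 at 0.020. On log2(TPM + 1) ZBTB37 was at 0.31, ZSCAN30 at 0.066, ZKSCAN1 at 0.18, ZBTB16 at 0.13, ZBTB7A at 0.39, ZKSCAN3 at 0.16, ZBTB38 at 0.17, ZBTB25 at 0.10, ZSCAN31 at 0.47, ZBTB46 at 0.37, ZBTB44 at 0.49, ZBTB32 at 0.28, TBL1XR1 at 0.39 and PDGFRB at 0.40, with all genes shifted by 0.35. With transcript length offsets ZSCAN31 was at 0.11 and ZSCAN18 at -0.0091, with GC content and length offsets ZBTB16 was at 0.16, ZBTB7A at 0.56 and ZBTB46 at 0.091, and with coding transcripts only ZBTB37 was at 0.062, ZBTB7A at 0.0072, ZBTB38 at 0.030 ZSCAN18 at -0.22 and ZBTB8OS at -0.58. The cause was not tested. Depth left 7 members untested, and ZBTB42 rests on 8 to 10 counts in each knockdown.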

Other observations

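Another 21 symbols of the same pattern had no coding transcript, and 5 of these passed the filter on low counts. ZKSCAN2-DT, a transcript divergent from ZKSCAN2, read 5.78, 3.08 and 6.26 CPM in the controls and 11.5, 8.11 and 11.96 CPM in the knockdowns. All knockdowns were higher, at a log2 difference of 1.06 and an adjusted p of 0.0479 with edgeR (0.0962 with offsets for transcript length and 0.0563 with offsets for GC content and length), while ZKSCAN2 itself read 9.30, 11.1 and 12.01 CPM against 13.4, 11.6 and 11.02 CPM (log2 difference 0.15, adjusted p = 0.619). ZBTB20-AS1, antisense to ZBTB20, read 5.53, 3.75 and 4.47 CPM against 7.998, 7.74 and 5.23 CPM (adjusted p = 0.157), and ZSCAN16-AS1 read 8.79, 6.83 and 7.92 CPM against 8.77, 15.7 and 10.1 CPM (adjusted p = 0.180). ZBTB46-AS1 and ZBTB11-AS1 had log2 differences of 0.18 and 0.20 (adjusted p = 0.773 and 0.746). These genes were picked after their values were seen, and without a stated strand setting reads of antisense pairs cannot be told apart.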
